A study of Mus musculus with 4 samples.

Results

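Axon guidance ligands and receptors, the secreted and membrane-bound cues that steer growing axons and migrating neurons together with the receptors that read them, were followed through 4 mouse cerebellar tumors. Probe sets, the groups of short oligonucleotides that read a transcript on an Affymetrix mouse expression array, were taken by gene symbol: semaphorins of classes 3 to 7, plexins, neuropilins, Eph receptors, ephrins, netrins, Dcc, Unc5 receptors, Slit proteins and Robo receptors. The rule goes by gene name and uses no signal value. It gave 50 genes of the 13320 with a probe set of their own symbol, read by 96 of 24679 probe sets. Further genes of these families were not analysed here.

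All 4 tumors carry the label Chd7-het, which names Chd7, the gene of a chromatin remodelling ATPase, and a mixed CD1xC57BL/6 background. The titles number them 1, 2, 4 and 5, and these numbers serve as names without an order. There is 1 array per tumor. The labels name no other allele, no agent, no age and no sex, and neither normal cerebellum nor another genotype is among the samples, so the only differences that can be measured are those between tumors.

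Guidance cues act in pairs of ligand and receptor. Secreted class 3 semaphorins bind neuropilins, which signal through A-type plexins, except that Sema3e binds Plxnd1 directly; most membrane-bound semaphorins bind plexins without a neuropilin. Ephrins are anchored to cells and signal by contact with Eph receptor tyrosine kinases, netrin attracts through Dcc and repels through Unc5 receptors, and Slit repels through Robo. In the developing cerebellum such cues guide granule cell precursors along the surface and then inward: Plxnb2 acts in dividing precursors, Sema6a and Plxna2 in the switch to inward migration, and Unc5c in holding granule cells within the cerebellar border.

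Signals are given on the log2 scale, where 1 unit is a 2-fold difference. A floor of 5.12 (34.8 linear) marks the signal under which probe sets were treated as unmeasured, and genes were tested if the mean over the tumors reached 5.87. Where a gene had several probe sets, the brightest on average was taken. Levels of different probe sets were not compared, since each binds its target with its own strength. Each array had between 59.1% and 61.3% of its probe sets above this floor, and the 3' Gapdh control read 0.686 to 0.757 times its 5' counterpart, a sign of RNA quality. All 7 of the genes listed for granule cell progenitors and the cerebellar lineage, among them Atoh1, Barhl1, Zic1 and En2, lay above the floor in every tumor. Their levels were not uniform. In tumor 1, 4 of the 7 read higher than the mean of the others, with differences of 1.26 for Pax6 and -0.83 for Atoh1. With 4 arrays, every value has limited precision.

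Of the 50 guidance genes, 25 lay above the floor in all 4 tumors, 12 in some and 13 in none. Those 25 are 50% of the genes, beside 69.2% of all 13320 genes. The families differed in how many members were measured. Every plexin was above the floor in at least 1 tumor, as the count of plexins and neuropilins below it throughout was 0 of 10, whereas 5 of 16 semaphorins, 2 of 8 ephrins and 2 of 6 Eph receptors lay below it throughout. Among the class 5 semaphorins and Slit1 no gene reached the floor, and among the 3 Unc5 receptors none did so in all tumors.

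**Figure D1:**
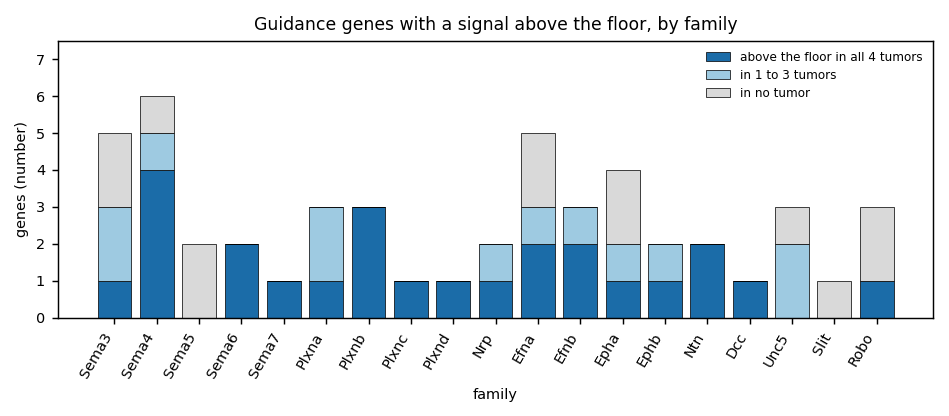
Number of guidance genes (vertical axis) in each family (horizontal axis), split by whether the highest-mean probe set lay above the floor of 5.12 in all 4 tumors, in 1 to 3 or in none. The Sema4 family has the most genes measured in all tumors, 4 of 6, and neither class 5 semaphorins nor Slit1 has any.

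The filter on the mean was passed by 25 guidance genes, or 50%, beside 63.8% of all genes. Of these 25, 4 varied by 2-fold or more between the lowest and the highest tumor: Epha3, Sema3e, Ephb1 and Sema4f. That is 16% of them, and 5.15% of all 8498 genes tested varied as much. The median range was 0.46 over the 25 genes and 0.38 over all genes. Genes that reached the filter only because 1 tumor was high had to differ: the means of Ephb1 (5.58) and Epha7 (5.75) in tumors 2, 4 and 5 lay below it. By group, 2 of 3 Eph receptors, 2 of 8 semaphorins, 0 of 6 plexins and neuropilins, 0 of 4 ephrins and 0 of 4 genes of the netrin and Slit pathways had such a range, a difference between groups that was not tested.

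**Figure D2:**
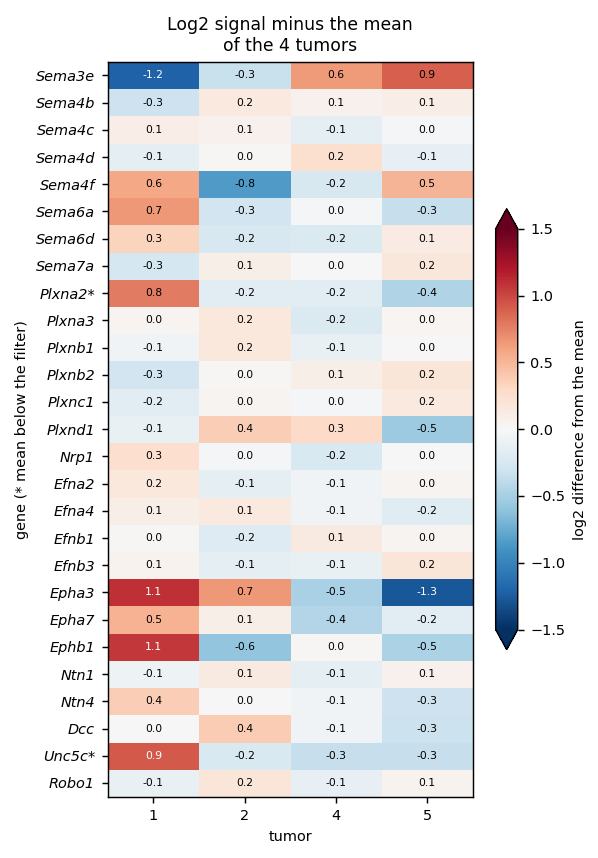
Log2 signal of each gene in tumors 1, 2, 4 and 5 minus its mean over the 4 tumors, after raising low values to the floor; red is above and blue below the mean, and an asterisk marks the 2 genes whose mean lay below the filter. Epha3 and Sema3e run in opposite directions across the tumors, and most plexins and ephrins are pale. Ephb1, Plxna2 and Unc5c stand high in tumor 1, but they are drawn only through that tumor, so this is no separate finding.

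The limma test, run over all 8498 genes, compared 1 tumor after another with the mean of the remaining 3, and a gene passed at an adjusted p under 0.05 with a difference of 2-fold or more. Over all genes 1.29% passed in tumor 1 and 0% in tumors 2, 4 and 5. None of the 25 guidance genes passed in any tumor. In tumor 1, 14 were higher and 11 lower, with a median difference of 0.053 beside -0.036 over all genes. The medians of the guidance genes in tumors 2, 4 and 5 were 0.059, -0.074 and 0.037, beside -0.017, 0.0037 and 0.038 over all genes. A difference of 2-fold or more, whatever its p, was seen for 2 guidance genes higher in tumor 1 (1.81% of all genes) and 1 lower (0.447%), 1 lower in tumor 2 (0.412%), and 1 higher (0.118%) and 1 lower (0.671%) in tumor 5. These are Epha3, Ephb1, Sema3e and Sema4f again, and at this number of genes the shares say little. In the bulk tissue measured here, fewer cells of a type and less RNA per cell cannot be told apart.

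Sema3e, the secreted semaphorin known for restraining blood vessels and axons through Plxnd1, read 6.98, 7.86, 8.83 and 9.09 in tumors 1, 2, 4 and 5 (8.19 ± 0.96, SD, n = 4). Tumor 1 was lowest and tumors 4 and 5 were highest, 4.31-fold from end to end. In the limma fit tumor 1 differed from the other 3 by -1.61 (SE 0.39), or 3.06-fold lower, with an adjusted p of 0.109, and lay below 3 of 3. With tumor 2, 4 or 5 left out in turn, the difference was -1.98, -1.49 and -1.36. The gene has 4 probe sets, and the other 3 followed: 1442226_at read 6.65, 7.29, 8.22 and 8.49, and 1427673_a_at read 4.66, 6.24, 7.32 and 7.36. The fourth, 1425906_a_at, read 4.56, 5.73, 6.56 and 6.53, so it too was lowest in tumor 1, with tumors 4 and 5 close together. These probe sets share the RNA of each tumor and are no replicates, but they read the gene with different oligonucleotides.

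Its receptor gene Plxnd1 read 5.95, 6.43, 6.35 and 5.52, lowest in tumor 5, where Sema3e was highest. Tumor 5 differed from the other 3 by -0.72 (SE 0.28, adjusted p = 0.957 in the limma fit) and lay below 3 of 3. A single probe set reads Plxnd1, so this order had no second reading.

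Epha3, an Eph receptor kinase for A-type ephrins, had the widest range of the guidance genes tested, with 7.49, 7.04, 5.90 and 4.98 in tumors 1, 2, 4 and 5 (6.35 ± 1.13, SD, n = 4). The order is the reverse of that of Sema3e, with tumors 1 and 2 high and tumor 5 below the floor. In the limma fit tumor 1 was at least 2.76-fold higher than the other 3 (1.47, SE 0.58, adjusted p = 0.360) and tumor 5 at least 3.22-fold lower (-1.69, SE 0.54, adjusted p = 0.957). Without tumor 2 the difference of tumor 1 was 2.01, and without tumor 1 that of tumor 5 was -1.41. With the floor at the 50th percentile the tumor 5 difference was -0.94. The other 3 probe sets kept the same order in all 6 pairs of tumors: 1425575_at read 7.06, 6.31, 5.28 and 3.75, and the remaining ones lay below the floor in every tumor. The percentile of its range among all genes tested was 99.6, and that of Sema3e 99.4.

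Unc5c, the repulsive netrin receptor, had the same order as Epha3 but a mean below the filter. Its brighter probe set read 6.39, 5.23, 4.66 and 3.86 in tumors 1, 2, 4 and 5, so tumors 4 and 5 lay below the floor. The dimmer one, below the floor throughout, read 4.32, 3.41, 2.79 and 2.46, in the same order. With no filter on the mean, tumor 1 was at least 2.35-fold higher than the other 3 (1.23, SE 0.063). In this fit tumors 4 and 5 were both raised to the floor, which narrows the spread it was set against. The fit is given for Unc5c and Plxna2 because tumor 1 lay 1 unit or more above the floor. It is thus no separate support for that tumor being high. Of the 438 genes that varied by 2-fold or more, 79 had the order of Epha3 and 25 that of Sema3e, so neither order is particular to these genes.

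**Figure D3:**
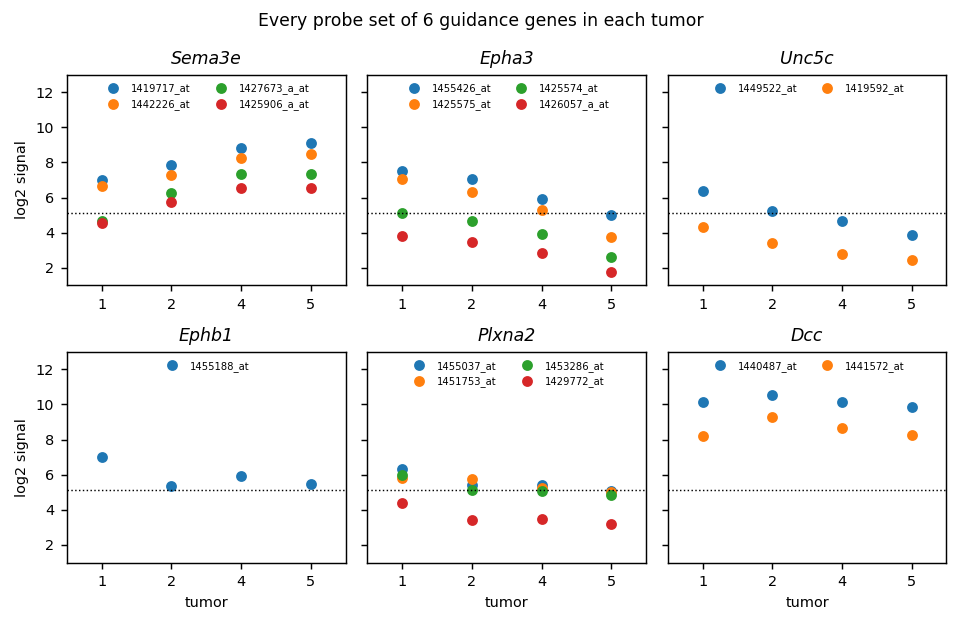
Log2 signal (vertical axis) of every probe set of 6 genes in tumors 1, 2, 4 and 5 (horizontal axis), 1 point per array; the dotted line is the floor of 5.12. All 4 probe sets of Sema3e are lowest in tumor 1, all 4 of Epha3 are lowest in tumor 5, and both of Dcc are highest in tumor 2.

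The promoters of these 3 genes are shown because their signals share an order or its reverse. They are the RefSeq windows of 300 bases on GRCm38.p6, from 250 bases before the start of transcription to 50 after it, and capitals mark the E-box CANNTG, the motif bound by basic helix-loop-helix factors such as Atoh1. RefSeq windows were found for 43 of the 50 genes. Sema3e lies at chr5:14025026-14025325 on the plus strand, Epha3 at chr16:63864126-63864425 on the minus strand and Unc5c at chr3:141465314-141465613 on the plus strand.
Sema3e: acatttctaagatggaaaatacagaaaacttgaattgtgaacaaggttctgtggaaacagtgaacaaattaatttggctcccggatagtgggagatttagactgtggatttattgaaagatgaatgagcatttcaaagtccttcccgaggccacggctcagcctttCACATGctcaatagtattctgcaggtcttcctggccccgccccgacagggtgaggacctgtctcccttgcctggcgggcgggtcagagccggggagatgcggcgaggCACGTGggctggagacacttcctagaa
Epha3: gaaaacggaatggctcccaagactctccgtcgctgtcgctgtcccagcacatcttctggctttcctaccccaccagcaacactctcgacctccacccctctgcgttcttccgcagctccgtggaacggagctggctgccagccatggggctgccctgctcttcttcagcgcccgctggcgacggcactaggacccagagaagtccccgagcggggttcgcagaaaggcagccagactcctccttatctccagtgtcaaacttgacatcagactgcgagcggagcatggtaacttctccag
Unc5c: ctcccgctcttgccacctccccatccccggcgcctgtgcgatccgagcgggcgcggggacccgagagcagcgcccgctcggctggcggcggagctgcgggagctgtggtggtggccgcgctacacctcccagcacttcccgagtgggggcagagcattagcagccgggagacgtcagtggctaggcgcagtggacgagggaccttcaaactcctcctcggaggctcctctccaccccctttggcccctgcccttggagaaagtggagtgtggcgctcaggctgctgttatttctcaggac

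The Sema3e window holds 2 E-boxes and the other windows hold 0. Among all 32851 windows of the table, 72.3% hold at least 1 on either strand, and 49.1% of the 57 windows of guidance genes do. The E-box variant CAGATG, which is a subset of CANNTG, was found in 0 of the 3 windows and in 17.2% of all windows, and the GLI motif TGGGTGGTC in 0 and 0.253%, both strands searched. The GC content was 50.7% for Sema3e, 60.7% for Epha3 and 68.3% for Unc5c, beside a median of 52.7% over all windows. A match describes letters in a window and says nothing about binding, and neither does the lack of one.

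The Eph receptor genes Ephb1 and Epha7 also read highest in tumor 1. Ephb1, a receptor kinase for B-type ephrins, read 6.998, 5.34, 5.94 and 5.45 in tumors 1, 2, 4 and 5 (5.93 ± 0.76, SD, n = 4), highest in tumor 1. Its mean reached the filter only through tumor 1, so its being tested, and the calls that follow, are no separate support for a difference of that tumor. The limma fit gave 2.68-fold (1.42, SE 0.28) and an adjusted p of 0.0503, the lowest among the guidance genes in any tumor and just outside the threshold. The call turned with the setting: Ephb1 passed in 7 of 12 alternatives, and its adjusted p ran from 0.00135 without tumor 4 to 0.308 with no filter on the mean. It also passed without tumor 2 (0.0295) and without tumor 5 (0.00250). Ephb1 is read by a single probe set.

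Epha7, another receptor for A-type ephrins, read 6.44, 6.01, 5.49 and 5.75, and tumor 1 exceeded the other 3 by 0.69 (SE 0.26). Its mean too reached the filter only through tumor 1, so this is no separate support for a difference of that tumor. The Epha7 probe set 1443485_at kept the same order in all 6 pairs of tumors. Epha4, which takes ligands of both ephrin types, and Epha5 lay below the floor in every tumor, and Ephb6, a receptor without kinase activity, lay between 4.91 and 5.26, around the floor.

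The 4 ephrins past the filter had narrower ranges than Epha3, Epha7 and Ephb1. This comparison was not tested, and Epha7 and Ephb1 reached the filter only through tumor 1, so they had to differ between tumors. Efnb3 read 6.37, 6.17, 6.20 and 6.50, Efnb1 5.97, 5.76, 6.09 and 6.00, Efna2 6.99, 6.69, 6.77 and 6.87, and Efna4 6.02, 6.08, 5.88 and 5.75. The SD of these 4 lay between 0.13 and 0.15. Efnb2, known from arteries, was above the floor in tumor 1 alone, at 5.97, with 4.85, 5.02 and 4.64 in the others. Its other probe sets lay below the floor throughout and were highest in tumor 1 as well. Efna5 lay around the floor, between 5.02 and 5.73, and Efna1 and Efna3 below it in all tumors.

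Among the semaphorins past the filter, Sema4f and Sema6a had the widest ranges after Sema3e. Sema4f, a membrane semaphorin of neurons, read 7.23, 5.81, 6.41 and 7.16, with tumor 2 lowest: it differed from the other 3 by -1.13 (SE 0.36, limma adjusted p = 0.795) and was 2.18-fold lower. That probe set has the suffix _x_at, which marks possible cross-hybridization, and the second probe set, around the floor, was lowest in tumor 2 as well, at 4.55. Sema6a, the ligand of Plxna2 and Plxna4, read 7.11, 6.17, 6.43 and 6.11, and tumor 1 was 1.83-fold higher (0.87, SE 0.23, limma adjusted p = 0.125) and above 3 of 3. Plxna2, whose mean lay below the filter, read 6.35, 5.41, 5.39 and 5.04, also highest in tumor 1. With no filter, tumor 1 exceeded the rest by 1.04 (SE 0.16), a fit given because tumor 1 lay 1 unit or more above the floor. Of the other probe sets of Plxna2, 3 of 3 were highest in tumor 1 and lowest in tumor 5. Ligand and receptor thus both read highest in the same tumor, and neither passed.

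Sema6d, a membrane semaphorin that binds Plxna1, read 8.66, 8.09, 8.12 and 8.45, with tumor 1 higher by 0.44 (SE 0.19, limma adjusted p = 0.441). Plxna1 itself lay close to the floor, between 5.01 and 5.33. Sema7a, a membrane-anchored ligand of Plxnc1 and integrins, read 10.16, 10.52, 10.44 and 10.60, and its second probe set 7.20, 7.94, 7.77 and 8.10, with the same order. Plxnc1 read 8.74, 8.96, 8.89 and 9.07. By these probe sets both genes were lowest in tumor 1 and highest in tumor 5, over ranges of 0.43 and 0.32 and without passing. The next brightest probe set of Plxnc1 read 7.77, 7.60, 7.65 and 7.97, again highest in tumor 5 but lowest in tumor 2. The dimmer 1423214_at, 1450906_at and 1443434_s_at, around or below the floor, were lowest in tumor 1 and highest in tumor 5. The low end thus differed between the brighter probe sets and is not settled for this gene.

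Sema4c and Sema4d are ligands of the B-type plexins. Sema4c read 7.49, 7.47, 7.25 and 7.38 and had the smallest range of the guidance genes tested, 0.24. Sema4d read 6.50, 6.65, 6.88 and 6.52, and Sema4b 6.27, 6.73, 6.64 and 6.67. Plxnb2, the plexin of dividing granule cell precursors, read 8.83, 9.13, 9.20 and 9.29, with tumor 1 below 3 of 3 (limma difference -0.38, SE 0.16, adjusted p = 0.396). Plxnb1 read 6.94, 7.15, 6.88 and 7.01, and Plxnb3 lay between 5.16 and 5.59. The summed signal of 6 genes of dividing cells, Mki67 and Top2a among them, was 5669 linear in tumor 1 and 7792, 8165 and 7918 in tumors 2, 4 and 5, and its part in the Plxnb2 difference was not tested.

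Of the class 3 semaphorins other than Sema3e, none had a mean that reached the filter. Sema3a, a repellent of axons and migrating neurons, read 5.21, 3.43, 3.92 and 3.94, under the floor outside tumor 1. Sema3d lay above it in tumors 1, 2 and 4 (5.38, 5.88 and 5.61) and at 4.40 in tumor 5, and Sema3c and Sema3g lay below it throughout. Of the neuropilins, the receptors of this class, Nrp1 read 7.25, 6.97, 6.76 and 6.99, and Nrp2 lay between 4.71 and 5.13. The probe sets of Nrp1 did not follow each other: 1418084_at read 5.73, 6.06, 6.16 and 5.87, the opposite order in every pair of tumors, so no order of the tumors is given for this gene. Plxna3, a partner of the neuropilins, read 7.07, 7.18, 6.81 and 7.06.

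The netrin receptor gene Dcc read 10.16, 10.55, 10.11 and 9.84 in tumors 1, 2, 4 and 5, with tumor 2 highest. Its second probe set read 8.19, 9.26, 8.63 and 8.24, highest in tumor 2 as well. Tumor 2 exceeded the other 3 by 0.51 (SE 0.18, limma adjusted p = 0.795). The ligand Ntn1 read 8.91, 9.13, 8.85 and 9.05, a range of 0.27, and Ntn4, a basement membrane netrin, 8.54, 8.17, 8.12 and 7.86. Tumor 1 exceeded the others in Ntn4 by 0.49 (SE 0.18, limma adjusted p = 0.328), and the dimmer probe set of this gene had the same order.

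Of the Unc5 receptors beside Unc5c, Unc5d gave a signal of 5.28 in tumor 1, while tumors 2, 4 and 5 gave 1.89, 2.07 and 2.70. Unc5b gave 5.06, 3.29, 3.93 and 3.69, and its second probe set 5.26 in tumor 1. Unc5b and Unc5d, like Unc5c, were thus highest in tumor 1, but at signals around or below the floor, where MAS5 values are noisy. The Slit receptor Robo1 read 8.28, 8.58, 8.27 and 8.45, a range of 0.31. Robo2 and Robo4, the latter known from endothelium, and the ligand Slit1 lay below the floor in all 4 tumors, Slit1 at 3.45, 4.97, 3.05 and 2.81.

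**Figure D4:**
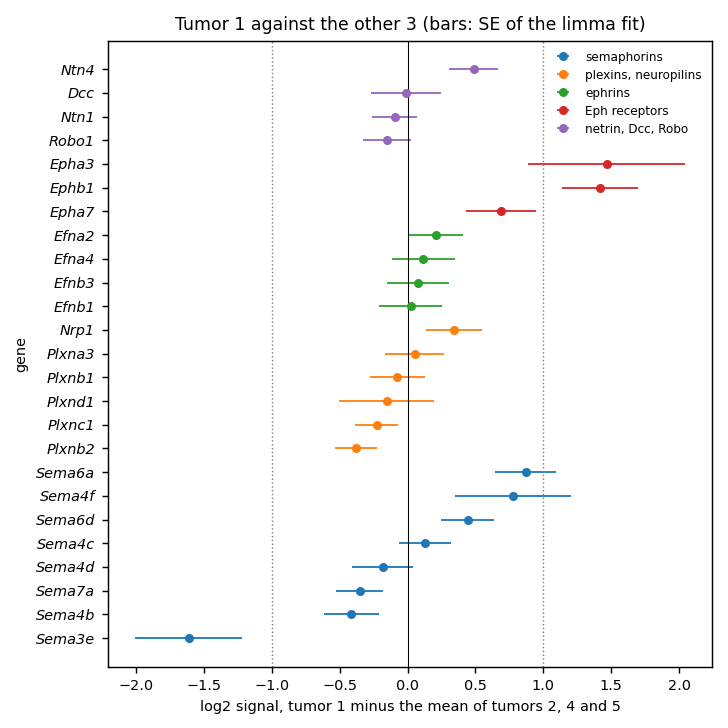
Log2 signal of tumor 1 minus the mean of tumors 2, 4 and 5 (horizontal axis) for the 25 guidance genes tested, coloured by group, with the SE of the limma fit as bars; dotted lines mark a difference of 2-fold. The 3 Eph receptors lie to the right, but Ephb1 and Epha7 were tested only through their tumor 1 signal. Sema3e lies farthest to the left, and no gene passed the test.

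Markers of several other cell types also read higher in tumor 1, and those of others did not. The summed linear signal of 8 genes of Purkinje cells and inhibitory neurons was 3895 in tumor 1 and 302.2, 562.9 and 286.4 in tumors 2, 4 and 5, with Gad2 below the floor throughout. That of 11 mature granule neuron genes was 9690, 4175, 4575 and 4684, with Grin2c below the floor. That of 10 oligodendrocyte genes was 6651, 2458, 3406 and 2608, but its members did not move together: Mbp, of myelin, read 11.59, 8.04, 9.59 and 8.26, whereas the lineage factors Sox10, Olig1 and Olig2 were lowest in tumor 1 (limma differences -0.80, -0.37 and -0.66, adjusted p = 0.340, 0.509 and 0.141). Their part in the higher Ephb1, Epha3, Epha7, Sema6a, Plxna2 and Unc5c signals of tumor 1 was not tested. Markers of fibroblasts, meninges and mural cells (8 genes) summed to 1221 in tumor 1 and 805.2, 624.4 and 809.0 in the others, with Col1a1 below the floor throughout. The 4 of these past the filter read higher in tumor 1 than the mean of the others, from 1.08 for Rgs5 down to 0.036 for Dcn. Dcn and Lum were highest in tumor 5. The 9 astrocyte and Bergmann glia genes summed to 7039, 5828, 6598 and 6784, and they did not move together. In tumor 1, 7 of the 9 read higher than the mean of the others, by 1.84 for Gdf10 and 1.62 for Gjb6. Gfap differed by -0.98 and Fabp7 by -0.13. Gdf10 lay below the filter in tumors 2, 4 and 5 and was tested only through tumor 1. Endothelial genes summed to 320.1, 265.1, 220.0 and 289.2, and Cdh5, Kdr, Tek, Tie1 and Flt1, 5 of the 7 measured, lay below the floor in every tumor. The sum of the 10 microglia and macrophage genes was lowest in tumor 1, with 2758, 2952, 4087 and 3137 in tumors 1, 2, 4 and 5. Not every member followed: Cx3cr1, Csf1r and Itgam were lowest in tumor 5 and C1qa in tumor 2. Of the 9 genes of this list past the filter, 2 read higher in tumor 1 than the mean of the others, and Itgam lay below the floor throughout. In tumor 5, where Sema3e was highest and Epha3 and Plxnd1 were lowest, 5 choroid plexus genes summed to 5141, beside 591.8, 162.2 and 146.9 in tumors 1, 2 and 4. Most of that sum is Ttr, at 12.16 in tumor 5 and 3.12, 2.14 and 5.70 in tumors 1, 2 and 4. Kl, Folr1 and Kcne2 were also highest in tumor 5, at 5.22, 6.14 and 5.28, and lay below the floor in the other tumors. Clic6, the gene of this list past the filter, was highest in tumor 1 (9.15, 7.11, 6.29 and 8.73 in tumors 1, 2, 4 and 5). The part of these cells was not tested.

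Genes that act downstream of or beside these receptors were read from a list of 71, of which 67 were on the table and 52 passed the filter. In tumor 1, 4 passed higher and 1 lower, beside 1.29% of all genes in either direction, and in tumors 2, 4 and 5 the count was 0. The median difference of the list in tumor 1 was -0.011, beside -0.036 over all genes. Mical1, an enzyme that oxidizes actin downstream of semaphorins and plexins, read 7.46 in tumor 1 and 8.71, 9.06 and 8.66 in the others, all above it, a difference of -1.35 (SE 0.19, limma adjusted p = 0.0146). Cxcl12, the meningeal chemokine that holds granule cell precursors at the surface, read 8.42 in tumor 1 and 6.83, 7.29 and 7.17 in the others (1.33, SE 0.22, limma adjusted p = 0.0289). The summed fibroblast, meninges and mural signal was also highest in tumor 1, though Dcn and Lum of that list were highest in tumor 5. The part of that signal was not tested. The Cxcl12 receptor Cxcr4 read 9.90, 10.28, 10.48 and 10.82. The others that passed higher were the Rac regulator Chn2, which is also on the list of mature granule neuron genes, and the adhesion molecules L1cam and Cntn2. Chn2 reached the filter only through tumor 1: it read 8.51 there and 4.93, 6.05 and 4.85 in tumors 2, 4 and 5. Its call is thus no separate support for a difference of that tumor. The collapsin response mediator Dpysl3 was higher in tumor 1 but by less than 2-fold (0.82, SE 0.16, limma adjusted p = 0.0459), and Crmp1, of the same family, read between 10.67 and 11.00 in all tumors. The small GTPases Rac1, Rhoa and Cdc42 had an SD between 0.086 and 0.12.

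Over all guidance genes, the reading of a second probe set often, not always, gave the same tumor as highest. Of 46 further probe sets of the 29 genes with more than 1, 14 lay above the floor in 3 or 4 tumors, and of these 10 had the same highest and 9 the same lowest tumor as the probe set standing for the gene. After low values were raised to the floor, probe sets lay on opposite sides by 1 log2 unit or more in a tumor for no gene (0 genes). A probe set below the floor throughout then shows no difference and cannot count as opposite. One of these, Sema4d 1434596_at, read 4.68, 3.22, 2.56 and 2.04 in tumors 1, 2, 4 and 5. It was highest in tumor 1, where the brighter probe set of Sema4d was lowest.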

How the data were processed

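Total RNA of 4 tumors was hybridized, 1 array each. The deposited values are log2 signals, and MAS5 is named per the submitters' processing notes; the sources used here give neither its version nor its scaling target. Linear values lay on steps of 0.1 (100% of them, to within 1e-04). Low log2 signals are noisy after the local background subtraction of this method, and array distributions are not aligned by it. Genes were named from the platform annotation (24679 probe sets with 1 symbol, 647 with several, 3917 with none, 61 controls). Values were raised to a floor, the median over arrays of the 40th percentile, and probe sets were kept if their mean reached the median over all probe sets, which left 13525 probe sets and 8498 genes. Differences of 1 tumor from the remaining 3 were fitted in R 4.3.3 using limma 3.58.1 (lmFit, eBayes with an intensity trend, Benjamini-Hochberg over all genes). The lone tumor is assumed to vary like the rest, and p-values measure only the spread between these arrays. The 4 fits share tumors. The fit was tested on simulated data.

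The guidance genes, the lists and the tests were chosen with earlier results of these data known. The rule for named genes gave values in every tumor to genes that passed, the 25 with the largest range, the extremes of each family, genes below the filter but 1 unit above the floor in a tumor, genes whose probe sets disagreed and a list of well-known pairs. Cell marker lists were given as values. The alternatives were other floors, filters, normalizations, probe set choices and priors, no fold threshold, and leaving out each tumor; those of the range count were chosen after seeing the data.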

Additional observations from a re-analysis of the deposited data

How the results depend on the processing

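The 13 differences of single genes with a size of 2-fold or more or an unadjusted p under 0.05 kept their direction in 161 of 161 alternatives. They were picked by size or p from these same data. Other filters, priors and the fold threshold leave a gene's difference unchanged and alter only its error, adjusted p or call. That count was thus largely fixed in advance and is no support for the directions. The count of guidance genes passing in tumor 1 was 0 as reported and 1 under a floor set to the 50th percentile, median centring, no _x_at or _s_at probe sets or no intensity trend (Ephb1 each time), and 1 with no filter on the mean (Unc5c). Leaving out 1 tumor gave 2 to 3 passing genes in tumor 1 (Ephb1 and Sema3e each time, Epha3 without tumor 2 and Sema4f without tumor 5), 0 to 2 in tumor 2 (Sema3e and Epha3 without tumor 1) and 0 to 2 in tumor 5 (Sema4f and Epha3 without tumor 1); such counts do not by themselves show a tumor outside the rest. Over all genes, 110 passed in tumor 1, 57 under the 50th percentile floor, 29 with the filter at the 75th, and 177 to 208 with a tumor left out; without tumor 1, 29 passed in tumor 2, 7 in tumor 4 and 47 in tumor 5. With no filter 1, 5 and 6 passed in tumors 2, 4 and 5. A floor at the 25th percentile left 38 guidance genes above it in all tumors, and 25 as reported. With the filter at the 75th percentile 9 were tested and 1, Sema3e, had a range of 2-fold or more, beside 4 as reported; leaving out 1 tumor gave 3 to 4, with 1.59% of all genes without tumor 1. The cause of these changes was not tested. No paired analysis was possible because the labels give a single group. Signals near the floor limit what can be said of the Unc5 receptors, Slit1 and the class 3 semaphorins other than Sema3e.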

Other observations

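Among the 25 guidance genes tested, tumor 1 was highest for 10 and lowest for 6, tumor 2 highest for 8 and lowest for 6, tumor 4 highest for 2 and lowest for 7, and tumor 5 highest for 5 and lowest for 6. Among the 25 genes below the filter, tumor 1 was highest for 14, tumor 2 for 8, tumor 4 for 1 and tumor 5 for 2. Those signals lie mostly under the floor, and array 1 also had the highest median of all probe sets, 5.96 beside 5.91, 5.84 and 5.84 in tumors 2, 4 and 5. The highest and lowest tumors were not counted over all genes, so these counts show nothing particular to guidance genes. In none of the 27 genes examined (0 genes) did 1 tumor stand apart from the other 3 by Dixon's criterion for 4 values.

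Other genes of the wider guidance list read differently between tumors without passing. Rgma, a repulsive ligand of Neo1, read 5.63, 6.17, 6.29 and 6.67 in tumors 1, 2, 4 and 5, lowest in tumor 1, as was Sema3e, while Neo1 read 9.89, 9.82, 9.71 and 9.53, highest in tumor 1. Srgap2, which acts downstream of Robo in membrane protrusion, read 8.46, 8.03, 7.68 and 7.48, in the order of Epha3. Flrt3, an adhesion molecule that binds Unc5 receptors, read 7.51, 6.80, 6.16 and 6.89, highest in tumor 1.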
